A study of Homo sapiens with 6 samples.

Results

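The histone genes of DU145 prostate cancer cells were examined in cells with forced expression of the transcription factor TFEB and in their vector controls. The members were chosen by name, as the protein-coding genes of the deposited table whose symbols begin with HIST1H to HIST4H (clustered histone genes) or with H2AF, H3F3 or H1F (variant histone genes). There were 13 of them among 10542 listed genes, 8 clustered and 5 variant. By the same rule GENCODE 29, the gene annotation to which the table's positions belong, holds 87 protein-coding genes, of which 71 are clustered and 16 are variant, and those outside the table were not analysed here.

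DU145 is a long-established line of human prostate cancer cells. They were infected with a lentivirus that carried TFEB (DU145-TFEB) or with an empty one (DU145-vector), each was made a stable line by puromycin selection, and 3 libraries of polyA RNA were sequenced from each. The labels do not say whether the 3 libraries of a group came from separate cultures, so the p-values measure the spread between these libraries, which may be technical. Each library held from 13999961 to 16511477 reads on the listed genes. TFEB itself stood at 6325, 6301 and 6036 normalized read counts in the DU145-TFEB libraries against 127.4, 123.9 and 125 in the DU145-vector libraries, as the labels state. Of the epithelial markers, KRT8 and KRT18 were listed, both lower in DU145-TFEB, with log2 fold changes of −0.68 and −0.78. EPCAM and CDH1 were not analysed here.

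Histones are the proteins around which DNA is wound. Core histones H2A, H2B, H3 and H4 form the nucleosome, and linker histone H1 binds the DNA where it enters and leaves. Most histone protein is made in S phase from clustered genes without introns. Their mRNAs end in a stem-loop in place of a poly(A) tail, and the stem-loop binding protein SLBP guides their processing, translation and decay. Variant genes such as those of histone H3.3 lie alone in the genome, have introns in many cases and give polyadenylated mRNA throughout the cell cycle. Some clustered genes, the H1 gene HIST1H1C among them, also give polyadenylated mRNA, mostly in cells that have stopped dividing. A library made from polyA RNA therefore reads the variant genes directly and the stem-loop mRNAs only in part.

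The stem-loop is shown for the clustered genes in whose annotated transcripts it was found, since it is the feature that sets the clustered mRNAs apart. The search used the pattern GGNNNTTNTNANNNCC on the transcript strand, with N for any base and with the 6 bases on each side able to pair, G with T included. Capitals mark the 16 bases of the stem-loop, and 5 bases of flank are given on each side (GRCh38).
HIST1H2AE: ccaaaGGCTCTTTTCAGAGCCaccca
HIST3H2A: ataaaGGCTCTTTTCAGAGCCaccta
HIST1H2BN: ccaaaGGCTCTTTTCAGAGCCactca
HIST1H2BC: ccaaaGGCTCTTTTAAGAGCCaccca
HIST1H2AG: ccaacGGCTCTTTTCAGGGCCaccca
HIST1H4H: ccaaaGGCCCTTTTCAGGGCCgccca
The core of 16 bases was the same in HIST1H2AE, HIST3H2A and HIST1H2BN. Counted from 1 at the first base in capitals, HIST1H2BC differed from HIST1H2AE by C10A and HIST1H2AG by A13G, while HIST1H4H differed by T4C and A13G. The stem-loop of HIST1H2AE, a gene of histone H2A, lies on the plus strand at chr6:26217417-26217432. That of HIST3H2A, also an H2A gene, lies on the minus strand at chr1:228457369-228457384. The stem-loops shown for genes that were lower in DU145-TFEB lie at chr6:27839090-27839105 (HIST1H2BN, plus), chr6:26123472-26123487 (HIST1H2BC, minus), chr6:27133515-27133530 (HIST1H2AG, plus) and chr6:26285131-26285146 (HIST1H4H, minus). The transcript HIST1H2BN-201, spliced to a distant exon, ends 5 bases past another stem-loop with the same core at chr6:27865778-27865793. No match was found in the annotated transcripts of HIST1H1C, HIST1H2BJ or any of the 5 variant genes. The annotated transcript of HIST1H1C is 642 bases long and ends with its stop codon, so the sequence past the coding part was not searched there. HIST1H2BJ-201, of 381 bases, also ends with its stop codon. HIST1H2BJ-203 is spliced to another exon after 384 bases and HIST1H2BJ-202 after 24. The genomic sequence just past the coding part of HIST1H2BJ was thus not searched either. Among all genes of GENCODE 29, the pattern was present in 32 of the 71 clustered genes (45.1%), in 1 of the 16 variant genes and in 107 of 19835 other protein-coding genes (0.539%).

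The comparison asks how the 2 kinds of histone gene stood in DU145-TFEB against DU145-vector. The clustered genes were divided. HIST1H1C (linker histone H1.2), HIST1H2AE and HIST3H2A (both H2A) rose, by 2.00-fold, 4.37-fold and 2.48-fold. HIST1H2AG (H2A), HIST1H2BN, HIST1H2BC and HIST1H2BJ (all H2B) and HIST1H4H (H4) fell, with log2 fold changes from −0.83 to −0.48. Among the variant genes H1FX, H2AFY2 and H2AFJ rose and the H3.3 genes H3F3A and H3F3B fell, with log2 fold changes from −0.34 to 0.93. All 13 passed an adjusted p of 0.05 in the limma test, and the groups did not overlap for any of them.

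These calls have to be read against the table they came from. It lists only genes whose adjusted p, in the authors' own test of the same libraries, was below 0.05. Of all its genes 100% passed the limma test after rounding, 47.6% of them higher and 52.4% lower in DU145-TFEB, and for 99.3% the groups did not overlap. That all 13 histone genes passed is therefore a property of the table. The calls of 3 higher and 5 lower among the clustered genes and 3 higher and 2 lower among the variant genes are counts of few genes near the split of the table. A log2 fold change above 1 was reached by 8.41% of listed genes and by 3 of the 8 clustered genes. With library totals, after quantile normalization and in 4 of the 6 fits that left out 1 library it was reached by 2, as HIST1H1C stood at 1.00. After a trend against GC content and length was removed it was reached among the clustered genes by HIST1H2AE alone, against 3.95% of listed genes. Of the variant genes H2AFJ, at 0.93 with the authors' size factors, reached 1.40 in that setting. It also stood above 1 with upper quartile scaling (1.11), quantile normalization (1.17), DESeq2 (1.17) and edgeR (1.01). A log2 fold change below −1 was found for 31.1% of listed genes and for 0 histone genes of either kind. Above 1.5, the cutoff of the study's methods, stood 2.54% of listed genes and among the histone genes HIST1H2AE alone, and below −1.5 stood 16.5% of listed genes and 0 histone genes. These shares are for the authors' size factors. DESeq2, the test of the study's methods, put HIST3H2A above 1.5 as well (1.55), with 484 of 10542 listed genes. Quantile normalization did so too (1.63), with 563 listed genes. HIST1H2AE stood at 1.46 once the GC and length trend was removed.

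**Figure D1:**
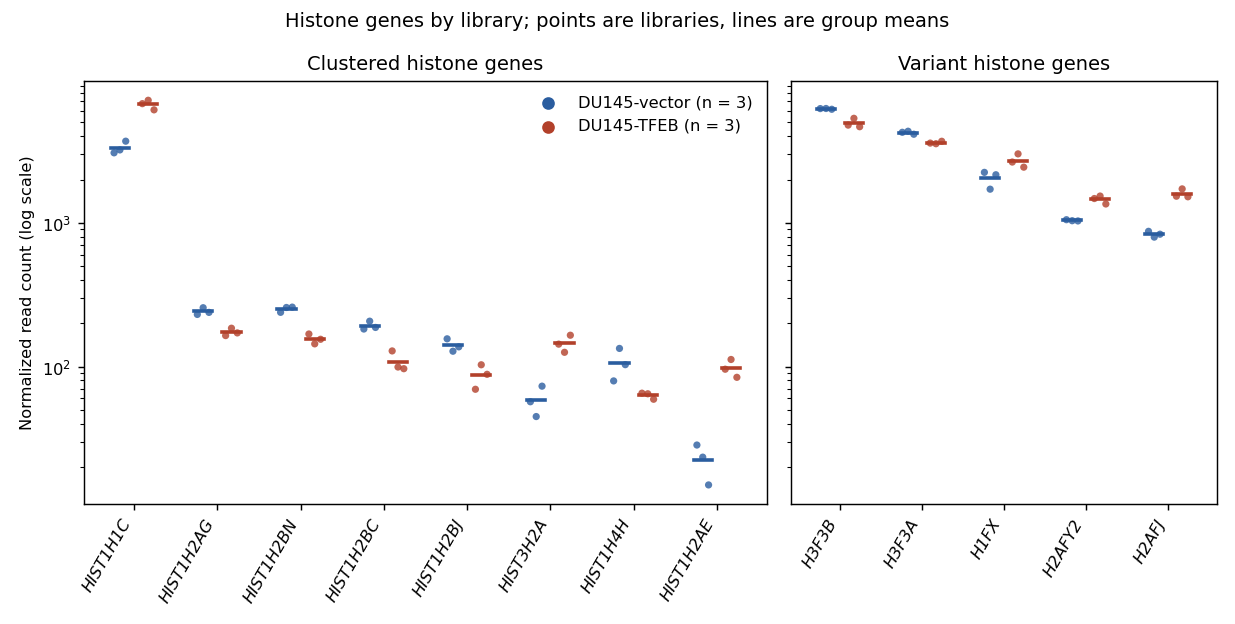
Normalized read counts on a log scale for the 8 clustered (left) and 5 variant (right) histone genes, with blue for DU145-vector and red for DU145-TFEB, points for the 3 libraries and lines for group means. HIST1H1C, HIST3H2A and HIST1H2AE were higher in all 3 DU145-TFEB libraries, the 5 other clustered genes were lower, and HIST1H1C stood far above the other clustered genes in count.

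HIST1H1C encodes linker histone H1.2, one of the main H1 proteins of dividing and resting cells. It lies at chr6:26055787-26056428 on the minus strand and is a single exon. Its normalized read counts were 6745, 7121 and 6108 in DU145-TFEB and 3068, 3214 and 3697 in DU145-vector. Every DU145-TFEB library thus stood above every DU145-vector library, and the means of 6658 ± 512 and 3326 ± 329 (SD, n = 3 each) differed by more than the spread. The log2 fold change was 1.00 (SE 0.0897, limma adjusted p = 9.52e-06).

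HIST1H2AE is a core histone gene at chr6:26216975-26217483, a single exon of 509 bases that ends 51 bases past its stem-loop. The counts were 95.8, 111.9 and 84.1 in DU145-TFEB and 28.4, 23.4 and 15 in DU145-vector. The lowest vector library rested on 15 reads, so this gene had the fewest reads of the 13. The group means were 97.3 ± 14 and 22.3 ± 6.78 (SD, n = 3), and the log2 fold change of 2.11 (SE 0.258, limma adjusted p = 5.13e-05) was the largest of the 13.

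HIST3H2A stands in a small histone group on chromosome 1, at chr1:228456979-228457873, as a single exon of 895 bases. Its counts were 143.1, 125.6 and 165.1 in DU145-TFEB and 56.9, 44.9 and 73 in DU145-vector. All 3 DU145-TFEB libraries were above all 3 vector libraries. The means were 145 ± 19.8 and 58.2 ± 14.1 (SD, n = 3), with a log2 fold change of 1.32 (SE 0.207, limma adjusted p = 2.49e-04).

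The H2B genes fell together. HIST1H2BN was counted at 168.4, 143.8 and 154.7 in DU145-TFEB and at 238.2, 257.5 and 259 in DU145-vector, a log2 fold change of −0.69 (SE 0.123, limma adjusted p = 5.12e-04). HIST1H2BC was counted at 128.4, 99.2 and 96.6 against 182.3, 206.8 and 187, a log2 fold change of −0.83 (SE 0.155, limma adjusted p = 6.62e-04). HIST1H2BJ was counted at 69.4, 102.8 and 88.3 against 155.9, 127.8 and 137, a log2 fold change of −0.70 (SE 0.180, limma adjusted p = 0.00432). For each of the 3 genes the highest DU145-TFEB library was below the lowest vector library, by the narrowest margin for HIST1H2BJ. HIST1H2BC kept its direction and call in all 20 alternatives of scaling, filter, model, trend removal and left-out library, while HIST1H2BJ missed the threshold with DESeq2 on recovered reads (adjusted p = 0.0528) and after quantile normalization (limma adjusted p = 0.115). HIST1H2BN missed it after quantile normalization (limma adjusted p = 0.132). It also reversed in the 3 alternatives with a GC and length trend removed, at 0.21 or 0.23, and was not called there.

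HIST1H2AG and HIST1H4H completed the clustered genes that were lower. HIST1H2AG, an H2A gene at chr6:27133042-27135291, was counted at 164.1, 184.7 and 171.3 in DU145-TFEB and at 230.3, 256.5 and 238 in DU145-vector. Its log2 fold change was −0.48 (SE 0.119, limma adjusted p = 0.00367), but it was 0.0039 after quantile normalization, and DESeq2 gave an adjusted p of 0.168. HIST1H4H, a gene of histone H4 at chr6:26277609-26285638, was counted at 65.2, 64.6 and 59.2 against 79.4, 133.6 and 103. Its vector libraries were widely spread, and the log2 fold change of −0.70 (SE 0.207, limma adjusted p = 0.00833) lost its call with DESeq2 (adjusted p = 0.0649) and after quantile normalization (limma adjusted p = 0.0697).

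Summed over the 8 clustered genes, the normalized count was 7487 ± 520 (DU145-TFEB) against 4337 ± 341 (DU145-vector, SD, n = 3), a ratio of 1.73. HIST1H1C gave from 88.2 to 89.5% of that sum in the DU145-TFEB libraries and from 75.4 to 78.5% in the vector libraries. Without it the other 7 genes summed to between 819 and 834 in DU145-TFEB and between 971 and 1050 in DU145-vector, a ratio of 0.82. The direction of the sum therefore rested on HIST1H1C. The 5 genes that were lower summed to 587 ± 14.6 and 931 ± 48.4 (SD, n = 3), a ratio of 0.63. Scaled to gene length, HIST1H1C had 10370 normalized counts per kilobase in DU145-TFEB and 5181 in DU145-vector, whereas HIST1H2AE had 191 and 43.8 and HIST1H2BN, at the low end, 28.4 and 45.9.

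The clustered genes that rose and those that fell differed in the number and splicing of their annotated transcripts, with HIST1H2AG as the exception. HIST1H1C, HIST1H2AE and HIST3H2A each have 1 transcript of 1 exon. HIST1H2BC, HIST1H2BN, HIST1H2BJ and HIST1H4H each have from 2 to 4 transcripts, at least 1 of them spliced. HIST1H2AG has 1 transcript of 1 exon, 2250 bases long. The length past the stem-loop did not divide them, as HIST3H2A runs on for 390 bases, HIST1H2BC-202 for 116, HIST1H2BN-204 for 377 and HIST1H2AG for 1761. HIST1H4H has a transcript that ends 18 bases past the stem-loop and 3 spliced ones that run on for 630 to 1655 bases. A poly(A) signal (the letters AATAAA) was searched on the transcript strand in the last 50 bases of each transcript. It was absent from HIST1H2AE and HIST3H2A, but also from HIST1H2BC. None was found in HIST1H1C, but its annotated transcript ends with the stop codon, so no sequence past the coding part was searched there. No such signal followed the stem-loop in HIST1H2BC or HIST1H2BN. It was present in the single transcript of HIST1H2AG, in 1 of 4 transcripts of HIST1H2BN, 1 of 3 of HIST1H2BJ and 3 of 4 of HIST1H4H. HIST1H2BN has 4 transcripts, and its gene model of 5477 bases overlaps HIST1H2AK, HIST1H2AL and the pseudogene HIST1H2BPS2, so reads on it may belong to these. Reads were counted per gene, and how they were divided among the transcripts was not tested.

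**Figure D2:**
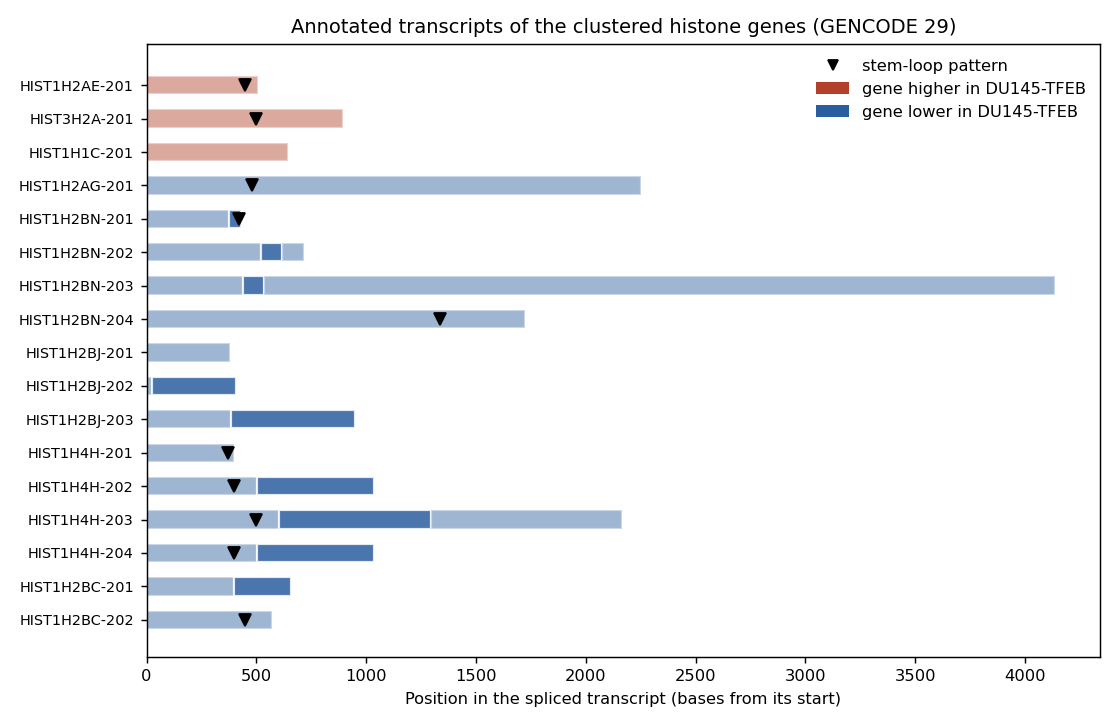
Annotated transcripts of the 8 clustered histone genes, drawn to scale in bases of spliced transcript from the start, with neighbouring exons in alternating shades, triangles at the stem-loop pattern, red for genes higher and blue for genes lower in DU145-TFEB. The 3 genes that were higher have 1 transcript each, of 1 exon and at most 895 bases, while of the genes that were lower 4 have at least 1 spliced transcript and HIST1H2AG has 1 exon of 2250 bases.

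GC content moved with the same division. GC content here is that of the longest annotated transcript. It was 56.2 to 57.7% for the 3 clustered genes that rose and 39.5 to 49.1% for the 5 that fell. This gap rests on the transcript used, as shorter transcripts of the genes that fell reach 58.8% (HIST1H2BN-201), 58.3% (HIST1H2BJ-201), 54.8% (HIST1H2BC-202) and 52.4% (HIST1H4H-201). Across the protein-coding genes of the table the log2 fold change rose with GC content. Its median was −1.37 at 35 to 40% GC, −1.07 at 40 to 45%, −0.51 at 45 to 50%, 0.45 at 50 to 55% and 0.57 at 55 to 60%, and 96.1% of the genes at 55 to 60% GC were higher in DU145-TFEB. The directions of the clustered genes were thus those of most genes with like GC content. HIST1H1C, HIST3H2A and HIST1H2AE, at 1.00, 1.32 and 2.11, lay above the median of 0.57 for that band. HIST1H4H, at −0.70, and HIST1H2BN, at −0.69, had fallen less than the median of their bands. HIST1H2AG, at −0.48, lay near the −0.51 of its band, and HIST1H2BJ and HIST1H2BC, at −0.70 and −0.83, lay below it.

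After the trend against GC content and length was removed from each library by loess, the 3 clustered genes that rose stayed higher, at 1.46 for HIST1H2AE, 0.62 for HIST3H2A and 0.29 for HIST1H1C. HIST1H2AG, HIST1H2BC, HIST1H2BJ and HIST1H4H stayed lower, between −0.70 and −0.63. The median of all listed genes was −0.32 in this setting. HIST1H2BN turned to 0.21 and was no longer called (limma adjusted p = 0.147). The GC content of HIST1H2BN is that of a transcript that continues far past the histone coding part, so the correction for it rests on that choice of transcript. A setting chosen after seeing the data used the GC content of the longest protein-coding transcript instead. The longest transcript of each clustered gene but HIST1H4H is already protein-coding, and HIST1H4H went only from 43.8 to 44.1%. The log2 fold changes were then 0.29 to 1.46 for the 3 that rose and −0.68 to −0.64 for the 4 that stayed lower. HIST1H2BN stood at 0.23. That they moved by little was thus set by the annotation, and the choice of transcript was not tested for the clustered genes. HIST1H2AG shares its single transcript of 1 exon with the genes that rose and its lower GC content (46.8%) with those that fell. In the other clustered genes transcript form and GC content cannot be told apart, and neither was tested as a cause.

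**Figure D3:**
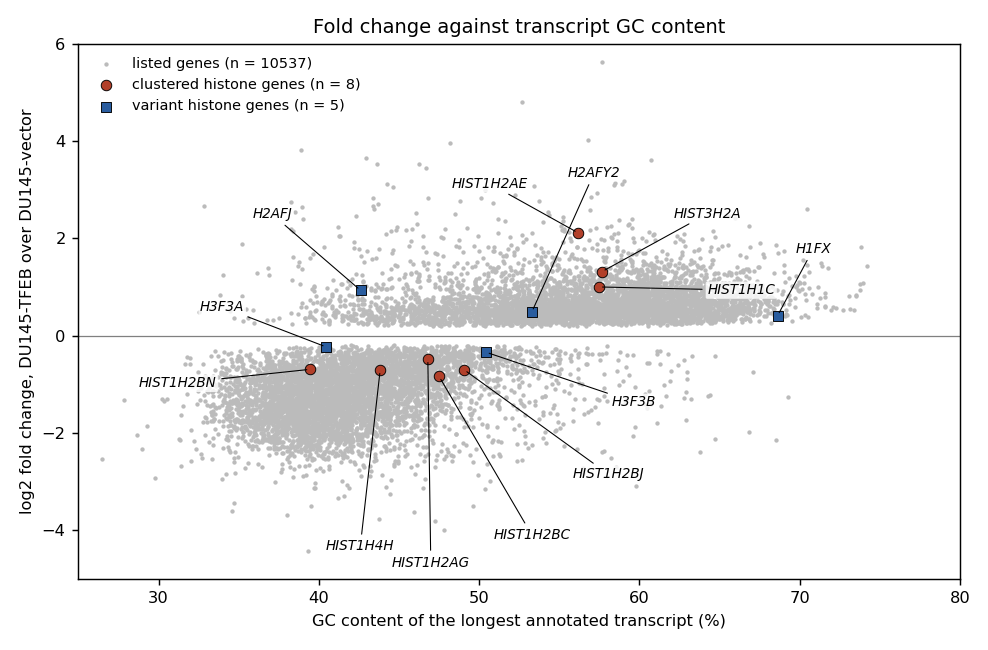
Log2 fold change of DU145-TFEB over DU145-vector against the GC content of the longest annotated transcript in percent, for 10537 listed genes (grey), the clustered histone genes (red circles) and the variant histone genes (blue squares). The empty band around 0 reflects the selection of the table, and the clustered genes fall into a group at 56.2 to 57.7% GC above 0 and a group at 39.5 to 49.1% GC below 0.

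Of the variant genes, H2AFJ had the largest change. It encodes H2A.J, a variant of H2A known to accumulate in senescent cells, and lies at chr12:14774383-14778002. Its counts were 1531, 1722 and 1517 in DU145-TFEB and 872, 795 and 833 in DU145-vector. The groups stood wide apart, with means of 1590 ± 114 and 833 ± 38.8 (SD, n = 3) and a log2 fold change of 0.93 (SE 0.0833, limma adjusted p = 9.60e-06). It kept its direction and call in 19 of the 20 alternatives. Its longest annotated transcript, H2AFJ-202 of 3107 bases, is classed as a target of nonsense-mediated decay and has 42.6% GC, whereas the protein-coding H2AFJ-203 of 644 bases has 62.9%. With the GC and length trend removed on the longest transcript its log2 fold change was 1.40, and on the longest protein-coding transcript it was −0.14 (limma adjusted p = 0.0781). The direction of H2AFJ therefore depended on which transcript stood for the gene in that correction.

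H2AFY2 encodes macroH2A2, an H2A variant with a large extra domain that is found in silent chromatin. It was counted at 1475, 1535 and 1352 in DU145-TFEB and at 1051, 1034 and 1030 in DU145-vector, a log2 fold change of 0.48 (SE 0.0773, limma adjusted p = 2.71e-04). H1FX, the gene of a linker histone outside the clusters, was counted at 2646, 3016 and 2438 against 2244, 1714 and 2159, a log2 fold change of 0.41 (SE 0.117, limma adjusted p = 0.0071). The lowest DU145-TFEB library of H1FX exceeded the highest vector library by a small margin. Both directions turned when the GC and length trend was removed, to −0.34 for H2AFY2 (limma adjusted p = 6.10e-04) and −0.72 for H1FX (limma adjusted p = 2.30e-06). The median of all listed genes was −0.32 in that setting, and H2AFY2 differed from it by only −0.02 and H1FX by −0.40. Their GC content is 53.3% and 68.6%, and 80.7% of protein-coding genes at 50 to 55% GC and 98.3% at 60 to 70% were higher in DU145-TFEB. H1FX also overlaps an antisense gene, H1FX-AS1, and 17.2% of the 50-base windows of its transcript occur there, while H2AFY2 overlaps AIFM2. The sources used here do not give whether the counting used strand.

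H3F3A and H3F3B encode the same protein, histone H3.3, which is deposited at active genes and elsewhere without DNA replication. H3F3B, at chr17:75776434-75785893, was counted at 4782, 5333 and 4660 in DU145-TFEB and at 6232, 6242 and 6165 in DU145-vector, a log2 fold change of −0.34 (SE 0.0701, limma adjusted p = 0.0013). H3F3A, at chr1:226061851-226072001, was counted at 3586, 3550 and 3692 against 4263, 4336 and 4132, a log2 fold change of −0.23 (SE 0.0616, limma adjusted p = 0.00482). Both were lower in every DU145-TFEB library, and together they summed to 8535 ± 302 and 10457 ± 144 (SD, n = 3), a ratio of 0.82. The count of H3F3B over that of H3F3A ranged from 1.26 to 1.5 in DU145-TFEB and from 1.44 to 1.49 in DU145-vector, so the balance of the gene pair was not separated between the groups. Neither call held with DESeq2, where the log2 fold changes were −0.09 for H3F3B and 0.0070 for H3F3A (adjusted p = 0.354 and 0.939). Removal of the GC and length trend left H3F3B at −0.69 and turned H3F3A to 0.39. The longest transcript of H3F3B retains an intron and has 50.4% GC, and with that of its longest protein-coding transcript (43.1%) H3F3B turned to 0.34. Of the 50-base windows of H3F3A 11.7% occur in other genes, above all its pseudogene H3F3AP4, which was counted at 900 ± 19.6 and 1081 ± 39.1 (SD, n = 3) and had a log2 fold change of −0.26. Reads of H3F3A and this pseudogene may have been divided between them.

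Over the 5 variant genes the sum was 14279 ± 781 (DU145-TFEB) against 14367 ± 274 (DU145-vector, SD, n = 3), a ratio of 0.99. The higher counts of H1FX, H2AFY2 and H2AFJ and the lower counts of the H3.3 pair thus came to sums whose ranges overlapped. In bulk RNA a change in the share of cells that express a gene and a change of its RNA per cell cannot be told apart, for these and the clustered genes alike.

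The median log2 fold change was −0.58 for the clustered genes (range −0.83 to 2.11) and 0.41 for the variant genes (range −0.34 to 0.93), against −0.36 for all listed genes. The difference between the 2 medians was −0.99, with no test since the members were chosen by name from a selected table. It depended on the processing. With the GC and length trend removed the medians were −0.21 and −0.34, against −0.32 for all listed genes. Their difference was then 0.13, or −0.063 on the longest protein-coding transcript. The range of the clustered genes enclosed that of the variant genes, so the 2 kinds were not separated.

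The median of all listed genes depended on the scaling. It was −0.36 with the authors' size factors, −0.40 with scaling to library totals, −0.18 with upper quartiles, −0.03 after quantile normalization, −0.11 with DESeq2 and −0.28 with edgeR. With either removal of the GC and length trend it was −0.32. These 6 scalings and both removals make 8 processing settings. Relative to that median, HIST1H1C, HIST1H2AE, HIST3H2A and H2AFJ stood above it in all 8, by at least 0.61, 1.78, 0.94 and 0.18. HIST1H2BC, HIST1H2BJ and HIST1H4H stood below it in all 8, by 0.31 to 0.48 on the log2 scale. H3F3B was 0.02 above the median and H3F3A 0.12 above it with the authors' size factors, so the H3.3 genes fell about as much as the typical listed gene. The remaining 6 genes changed side in at least 1.

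**Figure D4:**
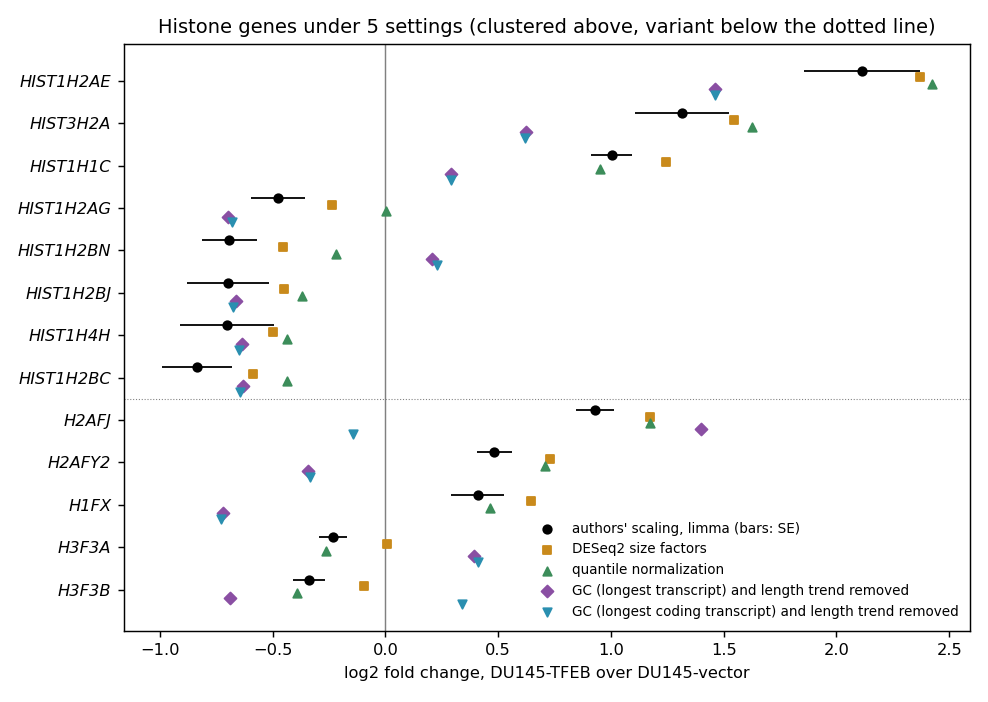
Log2 fold change of DU145-TFEB over DU145-vector for each histone gene with the authors' size factors (black, bars are SE from limma, n = 3 per group), DESeq2 (orange), quantile normalization (green) and removal of the GC and length trend with the GC content of the longest transcript (purple) or the longest protein-coding transcript (blue). HIST1H2AE, HIST3H2A and HIST1H1C lay above 0 in all 5, HIST1H2BC, HIST1H2BJ and HIST1H4H below 0 in all 5, and HIST1H2AG, HIST1H2BN and the 5 variant genes changed side in at least 1.

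Promoters were taken from RefSeq (GRCh38.p14) as the 250 bases before and 50 bases after the start, and 12 of the 13 genes were matched. HIST1H2BJ and HIST1H2AG are a divergent pair whose RefSeq starts lie 248 bases apart and whose promoter windows share 253 bases. Both fell, by 0.70 and 0.48 on the log2 scale, which is why their shared region is shown. The promoter of HIST1H2AE, the clustered gene with the largest rise, is shown beside it. The 250 bases before the start are given, with CCAAT and TATAAA and their reverse complements ATTGG and TTTATA in capitals. The first lies on the plus strand at chr6:27132793-27133042 and the second on the plus strand at chr6:26216671-26216920.
HIST1H2AG: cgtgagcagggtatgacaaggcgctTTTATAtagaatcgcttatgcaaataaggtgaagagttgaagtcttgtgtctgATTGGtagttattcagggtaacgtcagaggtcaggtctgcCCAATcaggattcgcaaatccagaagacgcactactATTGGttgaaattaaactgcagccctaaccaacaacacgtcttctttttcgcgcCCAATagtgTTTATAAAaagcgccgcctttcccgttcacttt
HIST1H2AE: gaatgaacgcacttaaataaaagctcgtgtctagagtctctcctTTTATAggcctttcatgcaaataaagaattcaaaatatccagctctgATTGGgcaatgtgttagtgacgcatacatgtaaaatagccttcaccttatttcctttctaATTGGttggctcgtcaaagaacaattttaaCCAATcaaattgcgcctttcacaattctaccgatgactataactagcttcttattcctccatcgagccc
The region between HIST1H2BJ and HIST1H2AG holds 4 CCAAT matches and 3 TATAAA matches on either strand, of which a pair overlaps in TTTATAAA, and the HIST1H2AE region holds 3 and 1. Over the windows of 300 bases CCAAT was found in 7 of the 8 clustered and 2 of the 4 matched variant promoters, against 34.6% of all 35116 promoters. TATAAA was found in 4 of the 8 clustered and 2 of the 4 variant promoters, against 11.5% of all. CACGTG, the core of the E-box that TFEB is known to bind, was found in 0 of the 12 promoters, against 7.26% of all. This says only that these letters are not in these windows.

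The genes that make and process histone mRNA were compared as a companion list. Of 32 such genes 25 were listed, 10 higher and 15 lower in DU145-TFEB, and their median log2 fold change was −0.38, near the −0.36 of all listed genes. SLBP, the stem-loop binding protein, stood at 1669, 1686 and 1637 in DU145-TFEB and 2092, 2174 and 2037 in DU145-vector, with a log2 fold change of −0.34 (SE 0.0668, limma adjusted p = 0.00101). It was lower in every DU145-TFEB library, but DESeq2 gave −0.09 (adjusted p = 0.345). SLBP stayed below 0 in all 8 processing settings, and stood at −0.96 with the GC and length trend removed, against −0.32 for all listed genes. NPAT, the coactivator that drives clustered histone transcription at histone locus bodies, stood at 125.2, 56.4 and 171.3 against 530.3, 574.5 and 488, a log2 fold change of −2.30 (SE 0.330, limma adjusted p = 1.39e-04). NPAT stayed lower in all 8 processing settings, at −1.25 with the GC and length trend removed, and its GC content is 37.4%.

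The other members with the highest counts were LSM4 (0.65), UPF1 (0.97), SNRPB (0.29) and YY1 (−0.30), as log2 fold changes. UPF1 is the helicase that with SLBP starts the decay of histone mRNA, LSM4 belongs to the ring that binds the mRNA for decay, SNRPB is a core protein of small nuclear ribonucleoproteins and YY1 is a transcription factor. Of these LSM4 and SNRPB turned to −0.38 and −0.44 when the GC and length trend was removed, and neither UPF1 (0.11) nor YY1 (−0.12) was then called. With the trend removed the list counted 2 higher and 19 lower with 4 not called, while of all genes 15.2% were called higher and 54.5% lower.

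Histone chaperones carry histones from synthesis to DNA. Of 29 in the list 23 were listed, 8 higher and 15 lower, and their median log2 fold change was −0.40. SUPT16H, a subunit of the FACT complex that moves nucleosomes ahead of polymerases, had a log2 fold change of −1.90 and was lower in all 8 processing settings. NPM1 (−0.65), NAP1L1 (−0.71) and SET (−0.31) were also lower with the authors' size factors. SSRP1, the other FACT subunit in the list, was higher (0.34) and stood at −0.16 with the GC and length trend removed. After that trend was removed NPM1 stayed lower (−0.20), NAP1L1 turned to 0.37 and SET was not called (0.07), and the list counted 3 higher and 13 lower with 7 not called, against the same 15.2% and 54.5% of all genes. CENPA, the H3 variant of centromeres, lies outside the name rule and was counted in this list, though it is a histone. It had a log2 fold change of 0.24 (SE 0.0852, limma adjusted p = 0.0199), and was not called with the trend removed (−0.12).

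S phase genes were counted because clustered histone mRNA is made in that phase. Of 41 in the list 26 were listed, 11 higher and 15 lower, and their median log2 fold change was −0.48. The helicase subunits that load at replication origins did not move together. MCM2, MCM3 and MCM5 had log2 fold changes of 0.40, 0.33 and 0.29 and MCM6 one of −1.10, and the groups of MCM3 overlapped. With the GC and length trend removed all 4 were lower, between −0.64 and −0.25, and the list counted 2 higher and 20 lower with 4 not called, beside 15.2% and 54.5% of all genes. SLBP, E2F1, CCNE1 and CCNE2 belong to both this list and the list of genes that make and process histone mRNA.

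**Figure D5:**
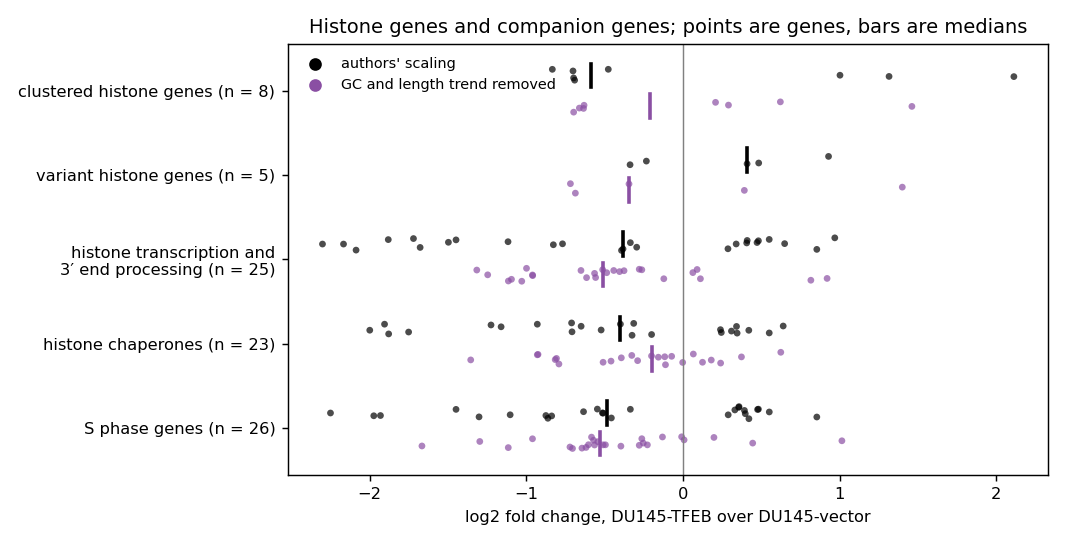
Log2 fold changes of DU145-TFEB over DU145-vector for the histone genes and 3 companion lists, with a point for each gene and a bar for the list's median, in black with the authors' size factors and in purple with the GC and length trend removed. Each list held genes on both sides of 0. In black the medians of the companion lists, −0.38, −0.40 and −0.48, lay near the −0.36 of all listed genes. In purple they were −0.51, −0.20 and −0.53, against −0.32 for all listed genes.

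RNAs of other kinds that carry no poly(A) tail were counted for comparison with the stem-loop mRNAs. Of 29 in the list 3 were listed. RN7SL2, the RNA of the signal recognition particle, stood at 4810, 5190 and 3932 normalized counts in DU145-TFEB and 2152, 2352 and 2950 in DU145-vector, a log2 fold change of 0.91 (SE 0.133, limma adjusted p = 1.58e-04). It was higher in every DU145-TFEB library, and within each group its libraries stood in the same order as those of HIST1H1C but those of HIST1H2AE and HIST3H2A did not in every group. HIST1H2AE stood in that order in DU145-TFEB and in the reverse order in DU145-vector, and HIST3H2A was highest in the DU145-TFEB library where RN7SL2 was lowest. RN7SL2 turned to −0.29 when the GC and length trend was removed. The small nucleolar RNAs SNORD17 and SNORA73B were lower, at 10.5 ± 3.63 against 55.1 ± 9.72 and 17.9 ± 5.70 against 34.8 ± 4.56 (SD, n = 3), with log2 fold changes of −2.33 and −0.96. The 3 RNAs thus did not share a direction with the authors' size factors. When the GC and length trend was removed all 3 were called lower, with SNORD17 at −2.60 and SNORA73B at −1.77, beside 54.5% of all genes. Their part in the values of the clustered histone genes was not tested.

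Further histone rows of the table lie outside the rule, as transcribed pseudogenes of H2B. HIST2H2BC was counted at 200 ± 27.0 in DU145-TFEB and 438 ± 61.5 in DU145-vector, and HIST2H2BD at 62.7 ± 13.1 and 142 ± 21.9 (SD, n = 3). Their log2 fold changes were −1.12 and −1.17, in the same direction as the H2B genes HIST1H2BN, HIST1H2BC and HIST1H2BJ. After removal of the GC and length trend HIST2H2BD stayed lower (−0.60) and HIST2H2BC was not called (−0.26).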

How the data were processed

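The deposited signal was the read count of each gene divided by 1 size factor per library, made by the authors with HISAT2 2.1.0 and GRCh38 among the tools and builds of the submitters' processing notes. Dividing by each library's step recovered whole reads for 100.0% of values (tolerance 0.001). The deposited p-values (adjusted, all below 0.05) were read only to describe this selection, and the deposited fold changes and group means were not used. log2(normalized count + 1) was tested with limma 3.58.1 with a trend (R 4.3.3), Benjamini-Hochberg adjusted over 10542 genes and called below 0.05. Fold changes of low genes are understated on this scale. The recovered reads were tested with edgeR 4.0.16 and with DESeq2 1.42.0 as alternatives. GC content and length trends were removed by loess (span 0.5), which keeps each library's mean, and again with the GC content of the longest protein-coding transcript, an alternative chosen after seeing the data. GENCODE 29 transcripts gave GC content for 10537 genes. Scripts were tested on simulated data. Members and lists were chosen with earlier results of these data known. Every member is named, with values per library. Companion lists are given as counts with up to 4 members of highest mean, besides SLBP, NPAT and CENPA. SSRP1 was added after the values were seen. With 3 libraries against 3, an exact two-sided permutation test cannot go below p = 0.1. Between libraries of a group the chi-square per gene was 2.96 to 26.6, so none was a duplicate. Of the fibroblast and leukocyte markers 0 were listed, and the androgen-responsive markers are not reported here.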

Additional observations from a re-analysis of the deposited data

How the results depend on the processing

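Over 13 histone genes and 20 alternatives (fold change cutoffs apart), 236 of 260 values kept direction and call, 8 lost the call and 16 reversed, and all 78 values without 1 library kept both. Without 1 library the median of the clustered genes ranged from −0.58 to −0.47 and the difference between the medians from −1.05 to −0.76.

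Of the 5 clustered genes that were lower, 1 was called after quantile normalization and 2 with DESeq2. Of the 2 variant genes that were lower, 1 was called with upper quartile scaling and 0 with DESeq2. The median of the clustered genes was −0.41 with upper quartiles, −0.11 after quantile normalization, −0.34 with DESeq2 and −0.50 with edgeR. The variant median was 0.65 with DESeq2, and the difference was −0.57 after quantile normalization. The single genes that reversed there were HIST1H2AG after quantile normalization (0.0039) and H3F3A with DESeq2 (0.0070). With the GC and length trend removed the medians were −0.21 and −0.34 and their difference 0.13, beside a median of −0.32 for all listed genes. H2AFY2 (−0.34), HIST1H2BN (0.21), H1FX (−0.72) and H3F3A (0.39) reversed. When the GC content was that of the longest protein-coding transcript, an alternative chosen after seeing the data, the medians were −0.21 and −0.14 and their difference −0.063, and H2AFJ (−0.14), H3F3B (0.34), H2AFY2 (−0.33), HIST1H2BN (0.23), H1FX (−0.73) and H3F3A (0.41) reversed. The trend follows the groups, so its removal also takes out part of any difference that moves with GC content. At an absolute log2 fold change above 1 the clustered genes counted 3 higher and 0 lower and the variant genes 0 and 0. With library totals, after quantile normalization and without 1 library in 4 of 6 fits the clustered genes above 1 were 2, and with the trend removed 1. Of the variant genes H2AFJ stood above 1 with upper quartiles, quantile normalization, DESeq2 and edgeR. It did so as well with the trend removed on the longest transcript (1.40). Above 1.5 the clustered genes counted 1 higher and 0 lower and the variant genes 0 and 0. DESeq2 and quantile normalization put HIST3H2A above 1.5 as well (1.55 and 1.63), and HIST1H2AE stood at 1.46 with the trend removed. Causes of these changes were not tested otherwise.

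The replicate numbers did not pair the samples, with correlations of −0.0178, −0.246 and −0.141 between libraries of the same number. With the replicate number as a block, 3 clustered and 3 variant genes were higher and 5 and 2 lower, as without it, the medians were −0.58 and 0.41, and with the trend removed as well the values were −0.21, −0.34 and 0.13 for the medians and their difference. Counting error limits HIST1H2AE most, at 15 reads in its lowest library.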
